A study of Mus musculus with 9 samples.

Results

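Cells that grow need cholesterol and fatty acids for their membranes, and the genes that make and move these lipids are described here in neurospheres grown with or without BMP4. The members are 37 genes listed by name for sterol synthesis, uptake and efflux, for the control of SREBP, and for fatty acid synthesis and desaturation. Of these, 36 had at least 1 probe set under their symbol in the platform annotation, 84 probe sets in all, out of 18193 genes with a probe set. Acat2, which makes acetoacetyl-CoA at the head of the sterol pathway, had no probe set under its own symbol. For tests, each gene was represented by its probe set with the highest mean over all arrays, and the gene entered the test if 3 or more arrays read 5 or higher. That left 10319 genes, among them 35 members, of which 33 were at 5 or above on all 9 arrays and 2, Abca1 and Lpl, were not. The sterol exporter gene Abcg1 missed the filter, at 4.80, 4.82 and 5.08 in BMP NCSC, 4.61, 4.88 and 4.39 in rNCSC, and 4.42, 4.77 and 4.59 in SCSC.

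The study profiled neurospheres, which are floating colonies of dividing progenitors, on Affymetrix Mouse 430_2 arrays with 3 arrays in each of 3 groups. All groups came from C57BL/6J embryos of day E12.5, were used at passage 3, and shared a serum-free medium in which bFGF and EGF were both present at 20 ng/ml, so no group lacked these mitogens. BMP NCSC came from dorsal root ganglia (DRG), the neural crest-derived sensory ganglia, with 10 ng/ml BMP4 added to that medium. rNCSC came from DRG without BMP4, and SCSC came from spinal cord without BMP4. The comparison of BMP NCSC with rNCSC differs in BMP4 alone by its labels, that with SCSC differs in both tissue and BMP4, and that of rNCSC with SCSC asks how tissue of origin shows under 1 medium. Nothing in the labels tells separate cultures or litters apart within a group, so all p-values reflect array-to-array spread, which may be technical. Values are the deposited log2 values, and a difference of 1 is a doubling of signal. Array medians lay between 3.99 and 4.03.

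In mammals, acetyl-CoA is turned into mevalonate, then into isoprenoid units, squalene and lanosterol, and lastly through a chain of ring modifications into cholesterol. The membrane-bound transcription factors SREBP-2 and SREBP-1 switch on most enzymes of this route and of fatty acid synthesis, SREBP-2 mainly the sterol enzymes and SREBP-1 mainly those of fatty acids. SCAP carries them out of the endoplasmic reticulum when sterol is scarce, and the INSIG proteins hold SCAP back when sterol is plentiful. In the embryonic nervous system, progenitors and glia make their cholesterol largely on site.

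SREBP binds sterol regulatory elements together with the factors NF-Y, at CCAAT boxes, and SP1, at GC boxes. For reference, 4 promoter windows from the RefSeq table of assembly GRCm38.p6 are shown, each running from 250 bases before to 50 bases after the gene's start. Hmgcs1 is shown because its window was the only member window with the element TCACNCCAC, a choice made after the windows were searched. Dhcr7, Mvd and Fads2 are shown as the members with the greatest called differences between BMP NCSC and rNCSC that had an entry. Capitals mark TCACNCCAC, CCAAT and GGGCGG on either strand, where the reverse letters of the last 2 are ATTGG and CCGCCC.
Hmgcs1, chr13:119690101-119690400, plus strand: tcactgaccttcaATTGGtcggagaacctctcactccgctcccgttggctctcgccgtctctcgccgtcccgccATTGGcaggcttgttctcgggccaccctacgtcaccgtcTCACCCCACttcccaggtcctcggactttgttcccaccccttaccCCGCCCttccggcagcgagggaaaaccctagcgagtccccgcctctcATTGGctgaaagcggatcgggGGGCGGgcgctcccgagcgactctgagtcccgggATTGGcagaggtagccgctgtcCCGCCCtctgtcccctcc
Mvd, chr8:122443373-122443672, minus strand: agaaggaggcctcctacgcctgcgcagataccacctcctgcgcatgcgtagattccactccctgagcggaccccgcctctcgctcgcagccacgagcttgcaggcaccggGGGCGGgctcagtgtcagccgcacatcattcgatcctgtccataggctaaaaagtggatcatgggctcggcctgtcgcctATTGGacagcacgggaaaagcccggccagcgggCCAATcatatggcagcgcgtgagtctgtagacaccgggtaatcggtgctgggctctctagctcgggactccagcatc
Dhcr7, chr7:143829964-143830263, plus strand, the only one of its 3 windows with CCAAT: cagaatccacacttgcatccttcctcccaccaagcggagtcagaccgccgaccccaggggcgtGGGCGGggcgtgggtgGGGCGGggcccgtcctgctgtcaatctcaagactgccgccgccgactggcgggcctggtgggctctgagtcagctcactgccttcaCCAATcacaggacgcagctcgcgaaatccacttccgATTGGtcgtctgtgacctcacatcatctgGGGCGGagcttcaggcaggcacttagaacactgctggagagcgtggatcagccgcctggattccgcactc
Fads2, chr19:10101454-10101753, minus strand: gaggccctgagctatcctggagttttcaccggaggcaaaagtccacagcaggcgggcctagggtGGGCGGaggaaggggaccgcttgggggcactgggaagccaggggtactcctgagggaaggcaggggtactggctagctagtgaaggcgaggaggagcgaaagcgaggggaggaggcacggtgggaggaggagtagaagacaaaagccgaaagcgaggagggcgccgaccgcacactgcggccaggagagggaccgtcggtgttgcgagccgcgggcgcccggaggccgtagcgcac

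The Hmgcs1 window held TCACCCCAC from base -137 relative to the gene's start, with 4 CCAAT and 3 GGGCGG matches. The Mvd window held 2 CCAAT and 1 GGGCGG, the Dhcr7 window shown held 2 and 3 (its other windows held 0 CCAAT each, with 1 and 0 GGGCGG), and the Fads2 window held 0 and 1. The table had 35 windows for 27 members, and no entry for the other 10. TCACNCCAC, searched on both strands, occurred in 1 of these 35 windows (2.86%) and in 1.24% of all 32851 windows. CCAAT occurred in 22 member windows (62.9%, against 37.4% of all windows), GGGCGG in 26 (74.3%, against 35.7%) and the E-box CACGTG in 7 (20%, against 7.15%). Matches were counted wherever they lay, overlaps with another motif included. The next counts are per gene, over all its windows. Of the 9 members with a window that were lower in BMP NCSC than in rNCSC, 7 held CCAAT and 8 held GGGCGG. All 3 higher members held both, Insig2 in different windows. Of the 14 members not called, 11 held CCAAT and 10 held GGGCGG. So these letters were present in members that moved either way, and a match describes the sequence alone.

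BMP NCSC had less signal than rNCSC for the larger part of the module, led by Dhcr7, Mvd, Fads2, Elovl6 and Fdps, while Insig2, Srebf1 and the enzyme gene Hsd17b7 were higher. A gene was called where the limma adjusted p was below 0.05 and the log2 difference was at least 1 either way. Between BMP NCSC and rNCSC, 13 of the 35 members (37.1%) were lower in BMP NCSC and 3 (8.57%) were higher. Over all genes tested, 21.3% were lower and 22.6% higher by the same rule, and the members' counts stand against that background. With no size limit, 23 members were lower and 6 higher, where 41.2% and 36.8% of all genes were. The median difference was -0.78 over the members and -0.07 over all genes tested. Of the 35 members, 24 had all BMP NCSC arrays below all rNCSC arrays, 5 had them above, and 6 overlapped. The share of all genes without overlap was not counted, so these numbers have no background to be set against.

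Against SCSC, 14 members were lower in BMP NCSC and 4 higher, with a background of 24.0% lower and 22.9% higher. With no size limit, 22 were lower and 7 higher, against 43.1% and 36.6% of all genes. The median difference was -0.76 over the members and -0.10 over all genes. Both comparisons use the same BMP NCSC arrays, so the 16 members called the same way in both, 13 lower and 3 higher, are not independent evidence. Between rNCSC and SCSC no member was called either way, on a background of 0.0% higher and 0.00969% lower. Unadjusted p was below 0.05 there for 2 of the 35 members and for 1413 of the 10319 genes tested. The members' median difference was -0.05, and 31 of 35 differed by less than 0.3, the 4 others being Abca1, Lpl, Npc1 and Insig2. Within groups, the members' median SD was 0.235 in BMP NCSC, 0.174 in rNCSC and 0.139 in SCSC. Fewer cells of a type and less RNA per cell cannot be told apart in these bulk samples.

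**Figure D1:**
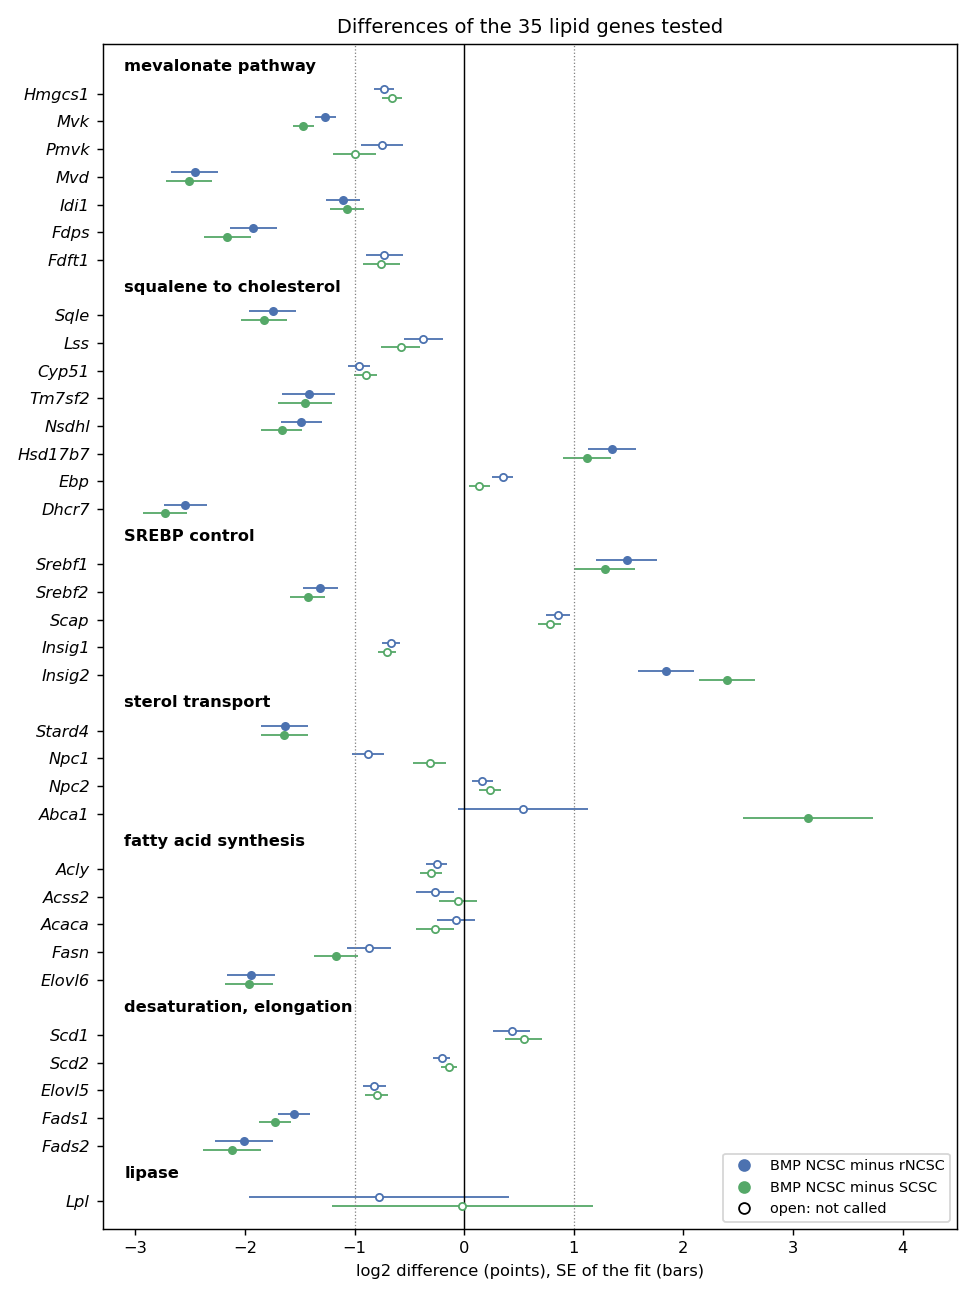
Log2 differences of the tested members, with points for BMP NCSC minus rNCSC and for BMP NCSC minus SCSC, grouped by class, bars for the SE of the fit, and open points for genes not called. Most sterol enzymes lie below 0 in both comparisons, while Insig2, Srebf1 and Hsd17b7 lie above 1 in both.

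The mevalonate arm leads from acetyl-CoA to farnesyl diphosphate and squalene. All 7 members tested had an adjusted p below 0.05 and lay lower in BMP NCSC than in rNCSC. With no size limit, 41.2% of all genes were lower than in rNCSC and 43.1% lower than in SCSC. Of the 7 members, 4 passed the size limit (median -1.11), with the same counts against SCSC (median -1.07). Those 4 are 57.1%, beside 21.3% of all genes lower than in rNCSC and 24.0% lower than in SCSC. Mvd, the decarboxylase that makes isopentenyl diphosphate, had 5.10, 5.55 and 5.10 in BMP NCSC, against 7.68, 7.99 and 7.45 in rNCSC and 7.38, 7.91 and 7.996 in SCSC. The BMP NCSC arrays lay more than 1 unit below every other array. Its difference was -2.46 (SE 0.21, limma adjusted p = 8.25e-06) from rNCSC, 5.5-fold lower, and -2.51 (adjusted p = 6.59e-06) from SCSC.

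Fdps makes farnesyl diphosphate, the branch point towards sterols, dolichol and prenylated proteins. It had 9.07, 9.74 and 9.04 in BMP NCSC, against 11.14, 11.51 and 10.97 in rNCSC and 11.32, 11.59 and 11.41 in SCSC. No BMP NCSC array reached the lowest array of the other groups, and Fdps differed by -1.92 (SE 0.21, adjusted p = 4.01e-05) from rNCSC and by -2.16 (adjusted p = 1.77e-05) from SCSC, both calls. Averaged with a second probe set near 2 on every array, which was not tested, the differences were -1.01 and -1.09. Mvk, the kinase that phosphorylates mevalonate, had 5.28, 5.22 and 5.37 in BMP NCSC, against 6.48, 6.63 and 6.57 in rNCSC and 6.64, 6.88 and 6.75 in SCSC. Its arrays were tight within each group, and the differences were -1.27 (SE 0.10, adjusted p = 3.55e-06) and -1.47 (adjusted p = 1.31e-06). Mvk in rNCSC also lay wholly below SCSC, by 0.20, which did not pass the test (adjusted p = 0.397).

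The isomerase gene Idi1 averaged 11.10 ± 0.15 in BMP NCSC, 12.21 ± 0.21 in rNCSC and 12.17 ± 0.22 in SCSC (SD, n = 3 each). It was lower by the call, at -1.11 (adjusted p = 0.000169) and -1.07 (adjusted p = 0.0002). The first call was lost without rNCSC replicate 1, at -0.99. Hmgcs1, the synthase that makes HMG-CoA and whose window holds the sterol element shown above, did not reach the size limit. It had 12.81, 12.82 and 12.82 in BMP NCSC, against 13.65, 13.47 and 13.53 in rNCSC and 13.38, 13.45 and 13.61 in SCSC, with differences of -0.74 (SE 0.09, adjusted p = 8.47e-05) and -0.66 (adjusted p = 0.000155). Its 5 probe sets differed in size, at -0.74, -1.01, -0.72, -1.77 and -3.31 from rNCSC in order of their level, all in 1 direction. The last of these had 4.63, 4.69 and 5.12 in BMP NCSC, against 8.55, 8.24 and 7.57 in rNCSC and 8.12, 8.06 and 8.37 in SCSC. For Hmgcs1, therefore, the size of the difference depended on the probe set read. Pmvk, the next kinase after Mvk, averaged 8.03 ± 0.33 in BMP NCSC, 8.78 ± 0.27 in rNCSC and 9.03 ± 0.17 in SCSC (SD, n = 3 each), and it just missed the size limit against SCSC (-0.999, adjusted p = 0.00136). Fdft1, squalene synthase, averaged 11.39 ± 0.30 in BMP NCSC, 12.12 ± 0.16 in rNCSC and 12.15 ± 0.18 in SCSC (SD, n = 3 each), differences of -0.73 (adjusted p = 0.0037) and -0.76 (adjusted p = 0.00294).

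From squalene onwards, 8 enzymes were tested. Against rNCSC, 4 were lower in BMP NCSC, 1 was higher and 3 were not called (median -1.19), with the same counts against SCSC (median -1.18). Thus 50% were lower and 12.5% higher, beside 21.3% and 22.6% of all genes against rNCSC, and 24.0% and 22.9% against SCSC. Dhcr7, the reductase of the last step to cholesterol, had the greatest fall of any member at the probe sets used for testing. It had 6.82, 6.95 and 6.81 in BMP NCSC, against 9.45, 9.81 and 8.94 in rNCSC and 9.44, 9.71 and 9.61 in SCSC. No BMP NCSC array reached 7, and every other array lay above 8. Dhcr7 was 5.83-fold lower than in rNCSC (-2.54, SE 0.20, adjusted p = 4.57e-06) and 6.63-fold lower than in SCSC (-2.73, adjusted p = 2.71e-06).

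Sqle, squalene monooxygenase, the first oxygenation and a control point of the pathway, had 9.71, 10.00 and 9.08 in BMP NCSC, against 11.34, 11.48 and 11.21 in rNCSC and 11.36, 11.54 and 11.36 in SCSC. It was lower by the call and without overlap, at -1.75 (SE 0.21, adjusted p = 7.29e-05) from rNCSC and -1.82 (adjusted p = 5.12e-05) from SCSC. Nsdhl, a dehydrogenase of C4 demethylation, had 8.47, 8.97 and 8.42 in BMP NCSC, against 10.20, 10.32 and 9.80 in rNCSC and 10.14, 10.47 and 10.25 in SCSC. BMP NCSC did not overlap the other groups here either, and the differences were -1.49 (SE 0.19, adjusted p = 9.31e-05) and -1.67 (adjusted p = 4.19e-05). Tm7sf2, a sterol C14 reductase, was the fourth, at 6.86 ± 0.50 in BMP NCSC, 8.28 ± 0.28 in rNCSC and 8.31 ± 0.14 in SCSC (SD, n = 3 each), with differences of -1.42 (SE 0.24, adjusted p = 0.000673) and -1.45 (adjusted p = 0.000558).

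Hsd17b7, the ketoreductase that works beside Nsdhl, was the only sterol enzyme higher by the call. It had 8.33, 8.79 and 7.96 in BMP NCSC, against 6.70, 7.09 and 7.24 in rNCSC and 7.10, 7.39 and 7.24 in SCSC. Every BMP NCSC array lay above every other array, and the means differed by 1.35 over rNCSC (SE 0.22, adjusted p = 0.00048) and by 1.12 over SCSC (adjusted p = 0.00141). The probe set used is of the x_at kind, whose probes can also match other transcripts, and the other probe sets of Hsd17b7 that passed the filter differed by 0.69 and 0.61 from rNCSC, in the same direction but under the size limit. Averaged over all its probe sets, Hsd17b7 differed by 0.60 from rNCSC and 0.49 from SCSC and was not called, and without BMP NCSC replicate 2 the call against SCSC was lost at 0.90. The call past the size limit therefore rests on 1 probe set.

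The other ring enzymes did not reach the size limit. Cyp51, the lanosterol demethylase, averaged 10.82 ± 0.14 in BMP NCSC, 11.78 ± 0.09 in rNCSC and 11.72 ± 0.09 in SCSC (SD, n = 3 each), a difference of -0.96 from rNCSC (adjusted p = 3.3e-05). Its other probe sets differed by -1.94 and -1.58, past the limit, the last with a BMP NCSC mean of 3.88, near the floor of the values. Lss, which closes the first sterol ring system, averaged 8.84 ± 0.18 in BMP NCSC, 9.21 ± 0.17 in rNCSC and 9.42 ± 0.33 in SCSC (SD, n = 3 each). It differed by -0.37 (adjusted p = 0.0831) from rNCSC and by -0.58 (adjusted p = 0.0154) from SCSC, and its second probe set by -1.29 from rNCSC. Ebp, an isomerase, stood at 8.997 ± 0.10 in BMP NCSC, 8.65 ± 0.07 in rNCSC and 8.86 ± 0.12 in SCSC (SD, n = 3 each), higher than in rNCSC by less than the size limit (0.35, adjusted p = 0.00956) and 0.14 from SCSC (adjusted p = 0.216).

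**Figure D2:**
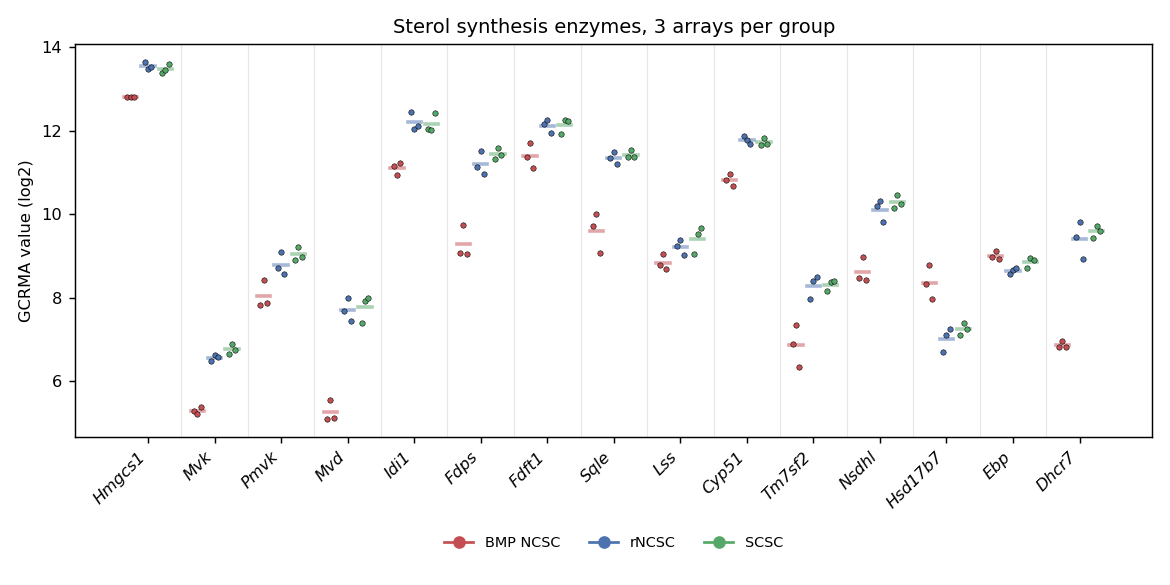
Deposited log2 values of the sterol synthesis enzymes, with 1 point per array and a bar at each group's mean (n = 3). The BMP NCSC points of Mvd, Fdps, Sqle, Nsdhl and Dhcr7 lie below all rNCSC and SCSC points, and those of Hsd17b7 lie above them.

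The SREBP control genes moved in opposite directions. Of the 5, 2 were higher and 1 lower in BMP NCSC than in rNCSC, with the same counts against SCSC (medians 0.86 and 0.78). That is 40% higher and 20% lower, beside 22.6% and 21.3% of all genes against rNCSC, and 22.9% and 24.0% against SCSC. All 5 had an adjusted p below 0.05 in both comparisons, 3 of them higher and 2 lower. With no size limit, 36.8% of all genes were higher and 41.2% lower than in rNCSC, and 36.6% and 43.1% than in SCSC. In each of the 5 the BMP NCSC arrays did not overlap those of the other groups, which was not counted over all genes. Srebf2, which encodes SREBP-2, had 7.26, 7.32 and 6.83 in BMP NCSC, against 8.28, 8.58 and 8.48 in rNCSC and 8.75, 8.56 and 8.38 in SCSC. It was lower in BMP NCSC, at -1.31 (SE 0.16, adjusted p = 7.06e-05) from rNCSC and -1.43 (adjusted p = 3.83e-05) from SCSC. A second probe set of Srebf2 differed by -0.56 from rNCSC, and averaged over its probe sets the gene was not called against rNCSC (-0.94).

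Srebf1, which encodes SREBP-1, went the other way. It had 10.50, 10.64 and 10.80 in BMP NCSC, against 8.45, 9.61 and 9.44 in rNCSC and 9.24, 9.57 and 9.28 in SCSC. The rNCSC arrays were spread, with replicate 1 lowest, and the rise was 1.48 over rNCSC (SE 0.28, adjusted p = 0.00107) and 1.28 over SCSC (adjusted p = 0.00239). Without rNCSC replicate 1 the rise over rNCSC was 1.12 and the call held. Thus the SREBP genes split by isoform, Srebf2 lower and Srebf1 higher in BMP NCSC.

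Insig2, an ER anchor of SCAP, was the member with the greatest rise over rNCSC. It had 11.02, 10.98 and 11.11 in BMP NCSC, against 9.23, 8.61 and 9.75 in rNCSC and 8.53, 8.51 and 8.88 in SCSC. It was 3.59-fold higher than in rNCSC (1.84, SE 0.25, adjusted p = 0.000166) and 5.28-fold higher than in SCSC (2.40, adjusted p = 2.85e-05), and its 3 probe sets rose by 1.84, 1.80 and 1.71 over rNCSC. Its relative Insig1, itself a target of SREBP, had 11.21, 11.25 and 11.34 in BMP NCSC, against 11.97, 11.92 and 11.93 in rNCSC and 11.88, 11.97 and 12.07 in SCSC. Insig1 thus lay on the other side, at -0.67 (SE 0.08, adjusted p = 8.25e-05) and -0.71 (adjusted p = 5.54e-05), under the size limit. Scap, the escort of SREBP, had 10.47, 10.70 and 10.59 in BMP NCSC, against 9.53, 9.84 and 9.81 in rNCSC and 9.78, 9.83 and 9.80 in SCSC, a difference of 0.86 (SE 0.11, adjusted p = 9.38e-05) from rNCSC, also under that limit, or 0.43 when averaged with a second probe set that was under the filter.

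**Figure D3:**
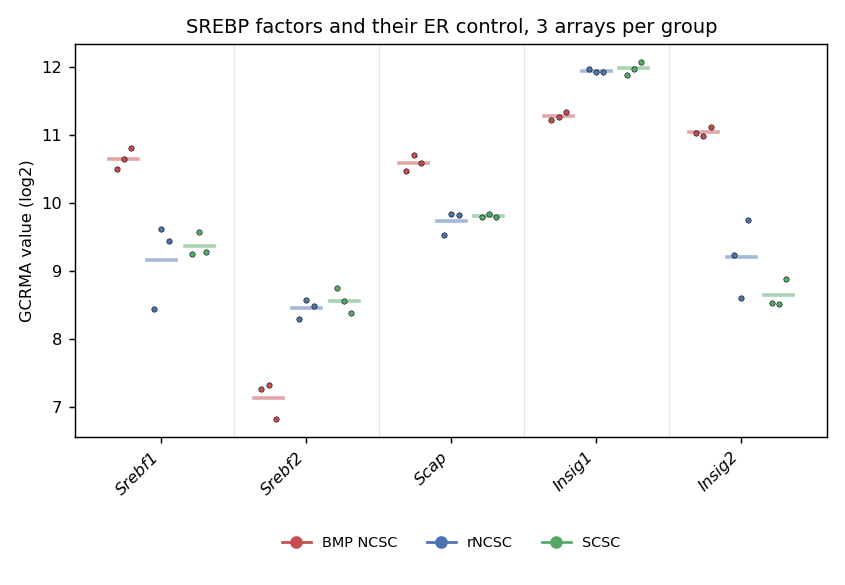
Deposited log2 values of the 5 SREBP control genes, with 1 point per array and a bar at each group's mean (n = 3). BMP NCSC lies above the other groups for Srebf1, Scap and Insig2 and below them for Srebf2 and Insig1.

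Other genes of SREBP processing and turnover came from a list of 9, with 8 tested. Against rNCSC, 4 were higher in BMP NCSC (50%) and 1 lower (12.5%), with a median of 0.64. Against SCSC, 3 were higher (37.5%) and 1 lower (12.5%), with a median of 0.35. Over all genes, 22.6% were higher and 21.3% lower than in rNCSC, and 22.9% and 24.0% than in SCSC. Mbtps1, the site 1 protease that cuts SREBP, rose by 1.47 over rNCSC (SE 0.11, adjusted p = 3.71e-06). Ube2g2, a ubiquitin-conjugating enzyme of ER-associated degradation, rose by 1.18 (SE 0.09, adjusted p = 4.8e-06). Erlin1, an ER membrane protein that binds SCAP and INSIG, fell by 1.49 (SE 0.12, adjusted p = 5.65e-06).

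Sterol transport held 4 tested members, of which 1 was lower than in rNCSC, and 1 was lower and 1 higher than in SCSC (medians -0.36 and -0.04). Each of these is 25%, near the 21.3% of all genes lower than in rNCSC and the 24.0% lower and 22.9% higher than in SCSC. Stard4, a cytosolic sterol carrier and an SREBP target, had 8.32, 8.82 and 9.02 in BMP NCSC, against 10.63, 10.48 and 9.97 in rNCSC and 10.22, 10.46 and 10.40 in SCSC. It fell by 1.64 (SE 0.22, adjusted p = 0.000123) against rNCSC and by the same amount against SCSC (adjusted p = 0.000115), and its other probe sets differed by -1.43 and -2.38 from rNCSC. Npc1, which moves cholesterol out of lysosomes, had 8.32, 8.42 and 7.87 in BMP NCSC, against 9.05, 9.05 and 9.14 in rNCSC and 8.54, 8.65 and 8.35 in SCSC. Its rNCSC arrays lay above all others, yet BMP NCSC and SCSC overlapped, with differences for BMP NCSC of -0.88 (SE 0.15, adjusted p = 0.000607) from rNCSC and -0.31 (adjusted p = 0.0812) from SCSC. Npc2, its soluble partner, averaged 12.15 ± 0.12 in BMP NCSC, 11.98 ± 0.05 in rNCSC and 11.91 ± 0.11 in SCSC (SD, n = 3 each).

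Abca1, the exporter that loads cholesterol onto apolipoproteins and a target of the sterol-sensing LXR receptors, had the greatest difference of any member between rNCSC and SCSC. It had 8.39, 9.12 and 9.51 in BMP NCSC, against 8.43, 7.55 and 9.43 in rNCSC and 4.86, 6.81 and 5.95 in SCSC. BMP NCSC overlapped rNCSC (0.54, SE 0.59, adjusted p = 0.423) but lay wholly above SCSC, with a mean difference of 3.14 (SE 0.59, adjusted p = 0.00108). rNCSC lay wholly above SCSC too, with a mean difference of 2.60 (SE 0.59) that did not pass over all genes (adjusted p = 0.189). Within each group the Abca1 arrays were spread, with SDs of 0.57, 0.94 and 0.98 in BMP NCSC, rNCSC and SCSC. Its other probe sets lay near the floor, at means of 3.02, 3.01 and 2.96, and of 2.30, 2.28 and 2.35, in the same order. They were not tested, so the differences of Abca1 rest on its brightest probe set.

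Besides Abca1, 2 members had the smallest p between rNCSC and SCSC, and neither passed. Npc1 was at 0.57 (SE 0.15, adjusted p = 0.205) without overlap, and Insig2 at 0.56 (SE 0.25, adjusted p = 0.377) with overlap. In rNCSC replicate 3, 2 of the 6 Schwann cell genes stood clearly above the other rNCSC arrays, Pmp22 at 10.71 against 7.58 and 7.59, and S100b at 7.95 against 5.02 and 4.69. They carried the list's mean of 6.18 on this array. Cdh19 was at 7.74 there, against 7.03 and 7.60, while Erbb3 (2.97), Sox10 (4.24) and Ngfr (3.45) were not above both other arrays. The same array was the highest of its group for Insig2 and Abca1. Without it, rNCSC minus SCSC was 0.28 for Insig2 and 2.12 for Abca1, and BMP NCSC minus rNCSC was 2.12 for Insig2 and 1.02 for Abca1. With rNCSC replicate 3 left out, 15 members were lower and 3 higher in BMP NCSC than in rNCSC. The part of Pmp22 and S100b in the Abca1 and Insig2 values was not tested.

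A list of 12 further genes of lipoprotein uptake and sterol efflux had 9 tested. Of these, 5 were higher (55.6%) and 2 lower (22.2%) in BMP NCSC against each of the other groups (medians 1.61 over rNCSC and 1.47 over SCSC). Over all genes, 22.6% were higher and 21.3% lower than in rNCSC, and 22.9% and 24.0% than in SCSC. Mylip, an LXR-induced ubiquitin ligase that targets lipoprotein receptors, had 10.18, 10.10 and 10.40 in BMP NCSC, against 4.57, 4.52 and 5.88 in rNCSC and 4.74, 4.32 and 4.25 in SCSC. Lrp1, a large endocytic receptor for lipoproteins and other ligands, had 11.49, 11.39 and 11.39 in BMP NCSC, against 7.43, 7.39 and 8.66 in rNCSC and 7.27, 7.01 and 7.09 in SCSC. Both were far above the other groups, by 5.24 (SE 0.34, adjusted p = 1.41e-06) and 3.60 (SE 0.30, adjusted p = 7.26e-06) over rNCSC, and in both rNCSC replicate 3 was the highest of its group. Abca7, a relative of Abca1, rose by 2.30 over rNCSC (SE 0.20, adjusted p = 8.92e-06). Mylip and Abca7 passed the filter through BMP NCSC, where they were high, so only a rise could be called for them, and the count of higher genes carries that limit.

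**Figure D4:**
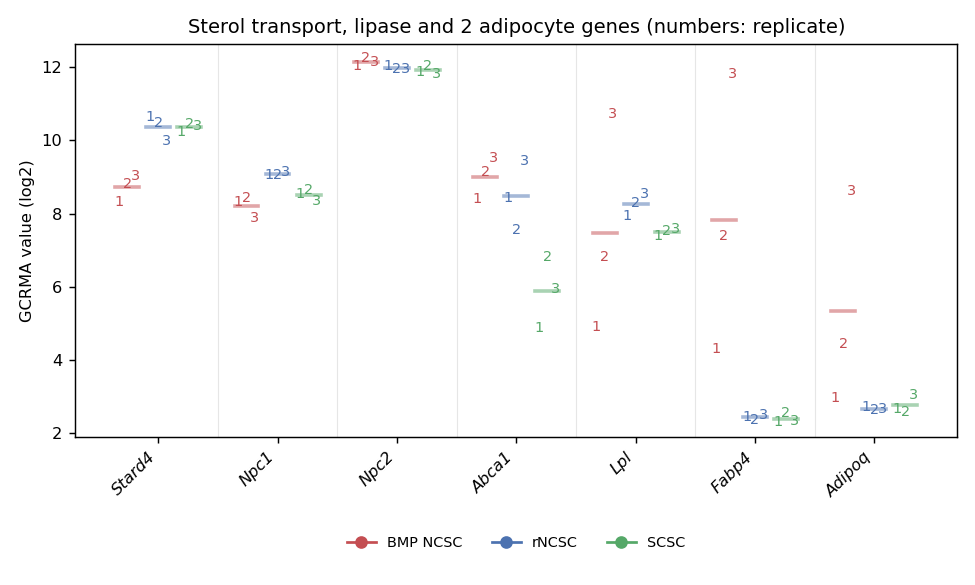
Deposited log2 values of sterol transport genes, Lpl and the adipocyte genes Fabp4 and Adipoq, with each array drawn as its replicate number and a bar at each group's mean (n = 3). The SCSC values of Abca1 lie below all its others, and the BMP NCSC values of Lpl, Fabp4 and Adipoq are lowest in replicate 1 and highest in replicate 3.

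Of the 10 fatty acid enzymes tested, 3 were lower in BMP NCSC than in rNCSC and 4 lower than in SCSC, with 0 higher in either (medians -0.54 and -0.55). These are 30.0% and 40.0% lower, beside 21.3% and 24.0% of all genes. For the 15 sterol enzymes the counts were 8 lower (53.3%) and 1 higher in both comparisons (medians -1.11 and -1.07), and the difference between the classes was not tested.

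At the head of fatty acid synthesis, Acly, Acss2 and Acaca, which supply acetyl-CoA and malonyl-CoA, had no call. Acly averaged 11.94 ± 0.14 in BMP NCSC, 12.20 ± 0.03 in rNCSC and 12.25 ± 0.09 in SCSC (SD, n = 3 each). Acss2 had 9.01, 9.06 and 9.18 in BMP NCSC, against 9.22, 9.41 and 9.41 in rNCSC and 8.72, 9.24 and 9.45 in SCSC. Acaca averaged 8.23 ± 0.33 in BMP NCSC, 8.31 ± 0.21 in rNCSC and 8.497 ± 0.08 in SCSC (SD, n = 3 each), and neither Acss2 (adjusted p = 0.19 and 0.786) nor Acaca (adjusted p = 0.716 and 0.192) passed the test at any size.

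Fasn, the synthase that builds palmitate, had 9.54, 9.96 and 9.93 in BMP NCSC, against 10.52, 11.12 and 10.41 in rNCSC and 11.14, 10.89 and 10.91 in SCSC. The BMP NCSC arrays lay below all others, while rNCSC and SCSC overlapped. The difference of -0.87 from rNCSC (SE 0.20, adjusted p = 0.00365) lay under the size limit, and that of -1.17 from SCSC (SE 0.20, adjusted p = 0.000629) passed it. Whether these 2 differences differ was not tested. Elovl6, which lengthens palmitate to stearate, had 8.29, 9.02 and 9.22 in BMP NCSC, against 10.64, 10.95 and 10.78 in rNCSC and 10.74, 10.95 and 10.73 in SCSC. It was 3.85-fold lower than in rNCSC (-1.94, SE 0.22, adjusted p = 4.83e-05), with a like difference from SCSC (-1.96, adjusted p = 4.21e-05).

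Among the desaturases, Fads1 and Fads2 of polyunsaturated fatty acids fell, while Scd1 and Scd2 of monounsaturated ones were not called at their brightest probe sets. Fads2, the delta-6 desaturase, had 7.79, 7.78 and 8.71 in BMP NCSC, against 9.84, 10.38 and 10.08 in rNCSC and 10.06, 10.50 and 10.08 in SCSC, with differences of -2.01 (SE 0.27, adjusted p = 0.00013) from rNCSC and -2.12 (adjusted p = 8.62e-05) from SCSC. All 3 of its probe sets were lower than in rNCSC, at -2.01, -1.46 and -2.24. Fads1, the delta-5 desaturase, had 8.92, 9.13 and 8.91 in BMP NCSC, against 10.33, 10.77 and 10.52 in rNCSC and 10.64, 10.95 and 10.55 in SCSC. It was 2.93-fold lower than in rNCSC (-1.55, SE 0.15, adjusted p = 1.49e-05). For both genes the BMP NCSC arrays lay wholly below those of the other groups, which overlapped each other.

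Elovl5, the elongase that works between those desaturases, had 11.65, 11.78 and 11.43 in BMP NCSC, against 12.40, 12.43 and 12.49 in rNCSC and 12.41, 12.47 and 12.37 in SCSC. It differed by -0.82 (SE 0.10, adjusted p = 8.9e-05) from rNCSC, under the size limit, and its second probe set by -1.10. Scd1, a stearoyl-CoA desaturase, had 11.64, 11.98 and 12.24 in BMP NCSC, against 11.35, 11.69 and 11.53 in rNCSC and 11.25, 11.60 and 11.38 in SCSC. The difference was 0.43 from rNCSC (adjusted p = 0.0441). Scd1 was the only member whose tested probe sets differed in sign there, the second being at -0.62. From SCSC these probe sets differed by 0.54 and -0.93 (limma adjusted p = 0.0175 and 0.0105, over all probe sets tested). Its place among the members higher than in SCSC with no size limit thus depended on the probe set read. Scd2, the form common in brain, averaged 13.81 ± 0.05 in BMP NCSC, 14.02 ± 0.01 in rNCSC and 13.95 ± 0.04 in SCSC (SD, n = 3 each), near the upper end of the scale, a difference of -0.21 from rNCSC (adjusted p = 0.0297). Its other probe sets differed by -0.98 and -1.17 from rNCSC, the last past the size limit, so the size for Scd2 depended on the probe set read.

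**Figure D5:**
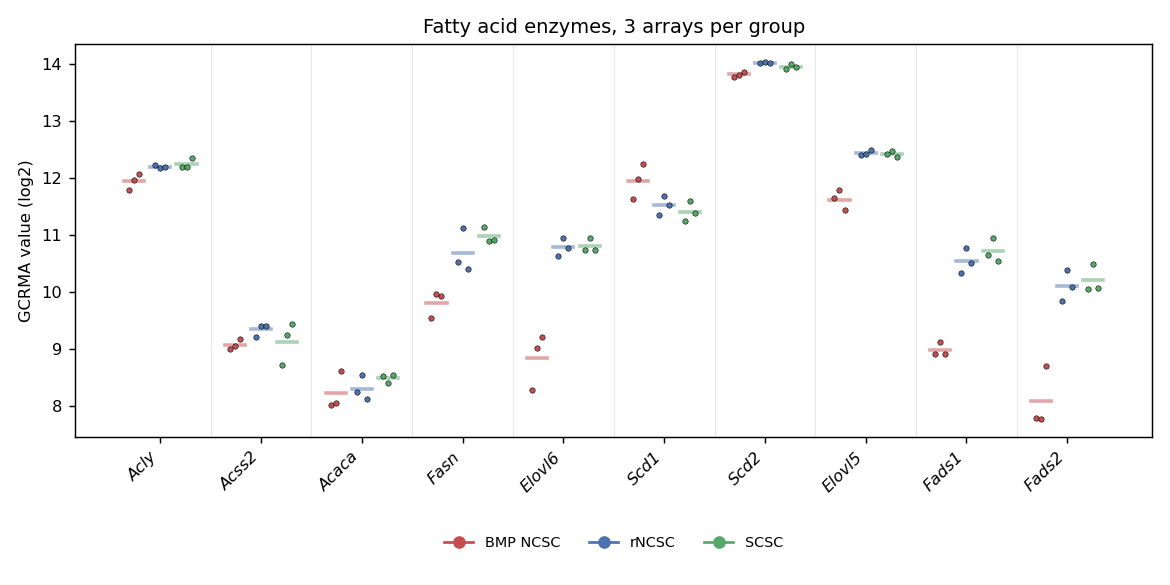
Deposited log2 values of the fatty acid enzymes, with 1 point per array and a bar at each group's mean (n = 3). Elovl6, Fads1 and Fads2 lie lower in all BMP NCSC arrays, while the points of Acaca overlap between all groups.

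From a list of 26 other genes of fatty acid synthesis, elongation and activation, 17 were tested, with 6 higher and 5 lower in BMP NCSC than in rNCSC, and 4 higher and 5 lower than in SCSC (medians -0.38 and -0.42). The shares against rNCSC were 35.3% higher and 29.4% lower, beside 22.6% and 21.3% of all genes. Against SCSC they were 23.5% higher and 29.4% lower, nearer to the 22.9% and 24.0% of all genes. Elovl2, which lengthens polyunsaturated fatty acids beyond the reach of Elovl5, had 2.56, 2.83 and 2.89 in BMP NCSC, against 10.11, 9.83 and 10.04 in rNCSC and 10.17, 9.83 and 10.33 in SCSC. It was high in both groups without BMP4 and near the floor in BMP NCSC, so it passed the filter only through the groups where it was high and the size of its difference (-7.23, SE 0.15, adjusted p = 2.05e-09) is uncertain. Elovl4, of very long chains, fell by 4.59 (SE 0.21, adjusted p = 1.65e-07) against rNCSC. Acsl6, an acyl-CoA synthetase of neural tissue, differed by -3.72 (SE 0.22, adjusted p = 7.07e-07) from rNCSC, with a BMP NCSC mean of 2.49. Elovl4 and Acsl6, like Elovl2, passed the filter only through the groups where they were high, so only a fall could be called. Fads3, counted as higher, passed only through BMP NCSC, so only a rise could be called for it. Among the higher genes, named here after their values were seen, malic enzyme Me1, which supplies NADPH, differed by 2.29 (SE 0.20), the dehydratase gene Hacd2 by 1.73 (SE 0.19) and the acyl-CoA synthetase gene Acsl4 by 1.59 (SE 0.15) from rNCSC.

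Among 15 tested genes of fatty acid oxidation, 3 were higher and 3 lower in BMP NCSC than in rNCSC, with a median of 0.00, and 4 and 3 against SCSC, with a median of 0.02. The shares of 20.0% each way against rNCSC were near those of all genes, 22.6% higher and 21.3% lower. Against SCSC they were 26.7% higher and 20.0% lower, beside 22.9% and 24.0% of all genes. Ppargc1a, a coactivator of mitochondrial genes, had 2.98, 3.58 and 2.95 in BMP NCSC, against 10.17, 9.38 and 9.94 in rNCSC and 9.20, 9.24 and 9.64 in SCSC. It lay near the floor in BMP NCSC alone and passed the filter only through the other groups. Of 8 tested genes on other branches of sterol and isoprenoid metabolism, 1 was higher (12.5%) and 2 were lower (25%) than in rNCSC (median -0.06). Against SCSC the counts were 2 and 2 (25% each, median -0.13), near the 22.9% higher and 24.0% lower of all genes. Hsd3b7, of bile acid synthesis, rose by 3.15 over rNCSC (SE 0.13, adjusted p = 8.59e-08), but it passed the filter only through BMP NCSC, so only a rise could be called. Lbr, a nuclear envelope protein that is also a sterol C14 reductase, fell by 1.41 (SE 0.08, adjusted p = 6.28e-07).

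Lpl, the lipase that frees fatty acids from lipoproteins, varied more than any other member within BMP NCSC. It had 4.90, 6.82 and 10.71 there, against 7.93, 8.30 and 8.53 in rNCSC and 7.39, 7.53 and 7.57 in SCSC. The BMP NCSC arrays lay on both sides of the other groups, with an SD of 2.96, and Lpl differed by -0.78 (SE 1.19, adjusted p = 0.564) from rNCSC and by -0.02 (adjusted p = 0.989) from SCSC. Without BMP NCSC replicate 3 it differed by -2.40 from rNCSC (adjusted p = 0.00256) and by -1.64 from SCSC (adjusted p = 0.0155), and without replicate 1 by 0.51 and 1.27. A second Lpl probe set had the same order of BMP NCSC arrays, with 3.62, 4.40 and 8.13 in BMP NCSC, 5.27, 5.31 and 5.59 in rNCSC, and 4.96, 4.72 and 4.77 in SCSC.

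The adipocyte genes Fabp4, Adipoq and Pparg had the same order of BMP NCSC arrays as Lpl. Fabp4, a fatty acid binding protein of fat cells and macrophages, had 4.30, 7.39 and 11.81 in BMP NCSC, against 2.45, 2.37 and 2.49 in rNCSC and 2.30, 2.55 and 2.34 in SCSC. Adipoq, which encodes the fat cell hormone adiponectin, had 2.95, 4.43 and 8.61 in BMP NCSC, against 2.70, 2.64 and 2.65 in rNCSC and 2.66, 2.56 and 3.05 in SCSC. Pparg, the master regulator of fat cells, had 4.01, 4.59 and 4.89 in BMP NCSC, against 3.19, 3.01 and 3.09 in rNCSC and 3.07, 3.03 and 3.20 in SCSC, while Cidec and Lep were under 4 in every group. Cebpa, another fat cell factor, had another order, with 5.78, 5.84 and 5.81 in BMP NCSC, against 4.45, 4.59 and 6.30 in rNCSC and 4.73, 4.43 and 4.48 in SCSC. Of the 7 adipocyte genes listed, 6 had a probe set and 1 passed the filter, and the list's mean was 3.73, 4.62 and 6.19 in BMP NCSC, 2.98 to 3.38 in rNCSC and 2.99 to 3.15 in SCSC. The 7 macrophage genes were under 4 in every group. For any gene 1 of the 3 arrays of a group is highest, and a link of this order to the adipocyte genes was not tested. BMP NCSC replicate 3 was the highest of its group for Scd1, Abca1, Elovl6, Srebf1, Fads2, Insig1, Insig2, Stard4, Idi1 and further members. It was not the highest for Mvd, Fdps, Sqle, Nsdhl or Dhcr7. Without that array 14 members were lower and 3 higher than in rNCSC, and Srebf1 was at 1.41. The part of the adipocyte genes in the Lpl values was not tested.

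Markers of proliferation and cell type moved with the same groups. The mean of the proliferation list over its genes was 4.89 to 5.68 in BMP NCSC arrays, 10.85 to 11.05 in rNCSC and 10.98 to 11.12 in SCSC, and all 9 tested genes were lower in BMP NCSC than in rNCSC (median -5.77). Neural progenitor genes had list means of 4.78 to 4.87 in BMP NCSC, 10.86 to 11.23 in rNCSC and 11.03 to 11.26 in SCSC, with 5 of 6 lower. The exception, Sox2, averaged 12.55 in BMP NCSC and 12.88 in rNCSC and was not called. Neural crest genes had 9.03 to 9.35 in BMP NCSC, 3.35 to 3.65 in rNCSC and 3.27 to 3.40 in SCSC, with 5 of 5 tested higher and Foxd3 under the filter. Genes near the floor in 2 groups could pass only through the third, which fixes their direction. So BMP NCSC carried crest markers, while rNCSC, which came from the same ganglia, had them near the floor. Schwann cell genes were higher in BMP NCSC for 6 of 6, with list means of 10.74 to 11.02 in BMP NCSC, 5.04 to 6.18 in rNCSC and 4.66 to 5.05 in SCSC. Sox10, Erbb3 and Ngfr are in both the neural crest and the Schwann cell list, so these counts are not separate results. Cartilage and mesenchyme genes had 10.81 to 11.27 in BMP NCSC, 4.002 to 4.08 in rNCSC and 3.99 to 4.20 in SCSC, with 4 of 5 tested higher. Sox9 differed by -0.77 from rNCSC and was not called, and Col1a1 was under the filter. Neuron genes had 4.14 to 5.17 in BMP NCSC, 4.18 to 4.78 in rNCSC and 4.70 to 4.91 in SCSC. Of the 4 tested, 2 were higher and 1 lower, and Isl1 was under the filter. The counts in this paragraph are against rNCSC, where 22.6% of all genes were higher and 21.3% lower. The lower sterol and fatty acid genes and these markers follow the same arrays, and their parts cannot be told apart.

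Read probe set by probe set, 68 of the 84 passed the filter. Against rNCSC, 30 were lower and 5 higher in BMP NCSC (median -0.84, with 54 below 0), where 21.5% of all 17651 probe sets tested were lower and 21.1% higher. Against SCSC, 30 were lower and 6 higher, where 23.9% and 21.7% of all were. At least 1 probe set was lower than in rNCSC for 19 members and higher for 3, and for no member were probe sets called both ways. A gene with several probe sets has more ways to be counted here. The matching share of all genes was not counted, so these numbers cannot be set against the shares of probe sets. The 6 members added as lower in this reading were Cyp51, Elovl5, Fdft1, Hmgcs1, Lss and Scd2, each through a probe set other than its brightest. Of the 21 members with 2 or more tested probe sets, 20 had all differences from rNCSC in 1 direction.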

How the data were processed

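The members and all gene lists were chosen with earlier results of these data known. Per the labels' protocols, RNA came from TRIzol and spin-column extraction and was labelled as biotinylated cRNA. The authors deposited 1 log2 value per probe set and array. GCRMA produced it, per the submitters' processing notes. Its version and any genome build are not given in the sources used here. This method estimates background from probe sequence, normalizes the arrays to each other and summarises probe sets. It draws weak signals together, so differences with a group mean under 4 have an uncertain size, and a change in total RNA per cell would not show.

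Of 45101 probe sets, 64 were controls and were left out. In the platform annotation 34945 had 1 symbol, 932 had several and were left out, 1 of them of Acss2, and 9160 had none. The gene IDs of 34741 were found in RefSeq's gene table (GRCm38.p6), used for names alone. A single limma fit (limma 3.58.1, R 4.3.3) held all 9 arrays, with 6 residual degrees of freedom and a prior of 2.38. The p-values are two-sided and adjusted by Benjamini-Hochberg over all genes tested. The steps were tested on simulated data. The number of arrays limits the precision. Levels were compared within a probe set, never between genes. Groups came from sample titles.

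Members named with every array were the 3 of each class with the greatest absolute difference from rNCSC, all SREBP control genes, Lpl, and the 3 with the smallest p between rNCSC and SCSC. Hmgcs1, Hsd17b7 and Scd1 were given array by array after their values were seen. Where a gene had several promoter windows, the one with most CCAAT matches was shown. In related lists the 3 genes with the smallest p were eligible. Alternatives changed the filter, the probe set chosen, the normalization, the arrays fitted, a replicate block, the variance model, array weights and the calling rule, and left out each array. Counts with no size limit, with each array left out, were added after seeing the data.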

Additional observations from a re-analysis of the deposited data

How the results depend on the processing

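No alternative turned the direction of a called member among those given array by array under the rule. Over 21 alternatives the members' median difference was -0.90 to -0.72 from rNCSC and -0.96 to -0.71 from SCSC, and -0.10 to -0.01 for rNCSC minus SCSC, where 0 members were called throughout. With no size limit, 23 members were lower and 6 higher than in rNCSC, and 22 lower and 7 higher than in SCSC. With the mean of all probe sets of a gene, under which Abca1 was not tested, 2 were higher than in SCSC. Leaving out each array gave 12 to 15 lower and 3 higher members against rNCSC, 14 to 15 lower and 3 to 4 higher against SCSC, and 0 for rNCSC against SCSC. With no size limit those ranges, added after seeing the data, were 21 to 24 lower and 5 to 6 higher against rNCSC, and 20 to 23 lower and 5 to 7 higher against SCSC. Lpl and Acss2 reversed without being called. For BMP NCSC minus rNCSC, Lpl was 0.51 without BMP NCSC replicate 1, and for BMP NCSC minus SCSC it was 1.27 without that array, 0.31 without BMP NCSC replicate 2, 0.02 without SCSC replicate 3 and 0.27 with the mean of probe sets. Over the arrays left out in turn, Lpl ran between -2.40 and 0.51 against rNCSC and between -1.64 and 1.27 against SCSC. Acss2 in BMP NCSC minus SCSC was 0.080 with array weights and 0.10 without SCSC replicate 3, and ran between -0.26 and 0.10 as arrays were left out. The mean of probe sets brought Fdps to -1.01 and Scap to 0.43 from rNCSC, and to -1.09 and 0.41 from SCSC, by averaging in a probe set under the filter, and it called Hmgcs1 (-1.51) and Cyp51 (-1.50) against rNCSC, which the brightest probe set left under the limit. Losses of Idi1, Srebf2 and Hsd17b7 and the gain of Lpl are given above. Against rNCSC, Fasn was also gained (-1.01 without rNCSC replicate 3). Against SCSC, the mean of probe sets gained Hmgcs1 (-1.49) and Cyp51 (-1.56) and lost Hsd17b7 (0.49). Other calls gained or lost there, with differences near 1, included Pmvk, Idi1 and, without BMP NCSC replicate 2, Hsd17b7. The causes were not tested.

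Replicate numbers are shared between groups. Same-numbered arrays correlated at 0.04 to 0.30 and differently numbered ones at -0.24 to 0.12. Only SCSC replicate 1 correlated better with another number, at 0.12 with BMP NCSC replicate 2 and 0.06 with rNCSC replicate 3. The main fit did not take the numbers as pairs, and whether they mark shared batches was not tested. With a replicate block, 13 members were lower and 3 higher than in rNCSC, 14 and 4 than in SCSC, and 0 between rNCSC and SCSC, so no count of members changed.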
